A study of Mus musculus with 16 samples.

Results

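The beaded filament chains of collagen VI (Col6a1, Col6a2 and Col6a3), the short-chain collagen VIII chains (Col8a1 and Col8a2) and the fibril-associated collagens XII, XIV and XVI (Col12a1, Col14a1 and Col16a1) were followed in mouse hearts. They are 8 of the 55487 genes of the count table, chosen by name and matched through their Ensembl identifiers, and all 8 passed the filter on low counts. Poly(A)-selected RNA was taken from the apex of 16 hearts at 4 weeks after surgery and sequenced. Ctrl sham (genotype WT) and KO sham (genotype CARDINAL-KO) hearts had the operation without constriction, whereas Ctrl TAC and KO TAC hearts had transverse aortic constriction (TAC), a narrowing of the aorta that puts the left ventricle under pressure load, with 4 mice in each group. The deletion was made with CRISPR/Cas9, the study used male mice only, and no strain or age is stated in the labels. KO mice lack Cardinal, a long noncoding RNA enriched in the heart and annotated in mouse as Gm12295.

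Collagens are trimers of chains that share a triple helix. Collagen VI chains assemble into beaded microfilaments around cells, next to the basement membrane. Collagen VIII is a short, network-forming collagen best known from vessel walls and from a basement membrane of the cornea. FACIT collagens (fibril-associated collagens with interrupted triple helices) do not form fibrils alone but sit on the surface of fibrils of collagen I and link them to other matrix proteins. In the heart, fibroblasts make most of this interstitial matrix.

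Library totals ranged from 53169437 to 79404714 counts. Gm12295, the deleted gene, was at 3.69, 3.86, 3.24 and 3.38 CPM in the Ctrl sham libraries 1 to 4, and at 0.553, 0.297, 0.465 and 0.545 CPM in KO sham. CPM are counts scaled by library total, here with TMM factors, which correct the totals for composition. It was at 8.02, 2.69, 3.04 and 3.37 CPM in Ctrl TAC. KO TAC 1, 2 and 3 had 0.371, 0.276 and 0.368 CPM, but the library labelled KO TAC 4 had 4.55 CPM, within the range of the Ctrl libraries, which goes against its label. Values of the KO TAC group include this library unless it is said to be left out. Without it, the rises from KO sham to KO TAC lay between 0.82 (Col6a3) and 3.75 (Col8a2) on the log2 scale, and none of the 8 moved by more than 0.083.

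After TAC, all 8 collagen genes rose in Ctrl hearts, against a background of 10.4% of the 18275 tested genes called higher in that comparison. All 8 also rose in KO hearts, where the background of genes called higher was 17.8%. The 8 genes were chosen with earlier results of these data known, so a count set beside its background is a description and not a test. The median log2 fold change of the 8 was 1.32 in Ctrl and 1.89 in KO hearts, whereas the median over all tested genes was 0.0043 in Ctrl and -0.0039 in KO hearts. In both genotypes every TAC library was above every sham library for all 8 genes (background of genes separated upwards, 10.5% in Ctrl and 18.0% in KO hearts). Between the 2 genotypes after TAC, 4 of the 8 were higher in KO TAC than in Ctrl TAC, namely Col12a1, Col14a1, Col8a2 and Col8a1, against a background of 1.36% called higher. These 4 also had every KO TAC library above every Ctrl TAC library, as did 5.55% of all tested genes. None was lower, and none of the 3 collagen VI chains was among the 4. Without the library labelled KO TAC 4, Col12a1, Col14a1 and Col8a2 were called between the genotypes after TAC and Col8a1 was not, and all 8 genes were still called higher in KO TAC than in KO sham. In sham hearts no collagen gene was called between genotypes, and neither was any other tested gene (background 0.00%, with 2.62% of genes at an unadjusted p under 0.05 in edgeR). The deleted gene Gm12295 was itself not called there (log2 fold change -2.92, SE 0.82, unadjusted p = 0.00358 in edgeR). Its KO sham libraries were all below its Ctrl sham libraries, so the lack of calls does not show that the deletion changed nothing. A gene was called when its Benjamini-Hochberg adjusted p over all tested genes was under 0.05 in the quasi-likelihood test of edgeR.

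**Figure D1:**
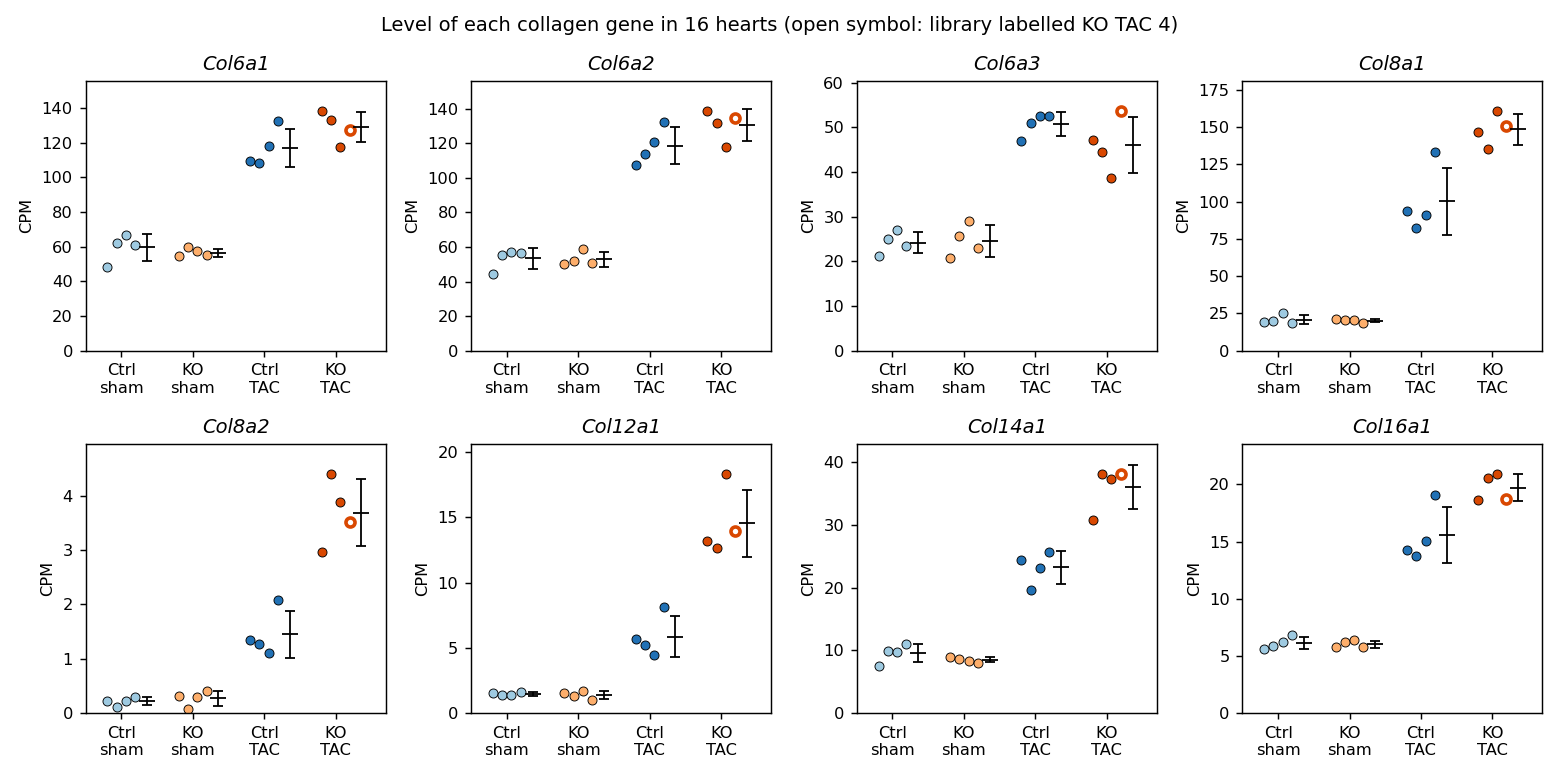
Level of each collagen gene (CPM, linear axes from 0) in the 4 libraries of each group, with the mean and SD beside the points; the open symbol is the library labelled KO TAC 4. Every TAC library lies above every sham library in all 8 panels, and the KO TAC libraries lie above all Ctrl TAC libraries for Col8a1, Col8a2, Col12a1 and Col14a1.

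The collagen VI chains rose by 0.97 to 1.15 on the log2 scale after TAC in Ctrl hearts and by 0.90 to 1.31 in KO hearts, and after TAC the libraries of the genotypes overlapped for all 3. Col6a1 (ENSMUSG00000001119, chromosome 10, 76708792 to 76726168, minus strand) and Col6a2 (ENSMUSG00000020241, chromosome 10, 76595762 to 76623630, minus strand) are neighbours. Col6a3 (ENSMUSG00000048126, chromosome 1, 90765923 to 90843971, minus strand) has the longest merged exons of the 3, 11963 bases. These positions are in GRCm38, and no member shares exon bases with another annotated gene.

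Col6a1 was at 48.4, 62.0, 66.9 and 61.0 CPM in the 4 Ctrl sham hearts and at 54.4, 59.6, 57.3 and 54.9 CPM in those of KO sham. After TAC it was at 109, 109, 118 and 132 CPM in Ctrl and at 138, 133, 118 and 127 CPM in KO hearts. The lowest TAC library was thus far above the highest sham library, while the Ctrl TAC and KO TAC libraries overlapped. The rise was 1.97-fold in Ctrl (log2 fold change 0.97, SE 0.09, adjusted p = 4.59e-07) and 2.28-fold in KO hearts (log2 fold change 1.19, SE 0.09, adjusted p = 2.08e-08). Col6a2 had nearly the same counts, with 44.4, 55.6, 56.9 and 56.5 CPM in the Ctrl sham libraries and 49.9, 51.8, 59.1 and 50.5 in the KO sham libraries. In Ctrl TAC it had 107, 114, 121 and 132 CPM, and in KO TAC 139, 132, 118 and 135 CPM. Again sham and TAC did not overlap but the genotypes did. Its rise was 2.22-fold in Ctrl (log2 fold change 1.15, SE 0.08, adjusted p = 9.33e-08) and 2.47-fold in KO hearts (log2 fold change 1.31, SE 0.08, adjusted p = 6.24e-09).

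Col6a3 was at 21.3, 24.9, 27.0 and 23.5 CPM in Ctrl sham, 20.7, 25.7, 29.1 and 23.1 in KO sham and 47.0, 50.9, 52.7 and 52.5 CPM in Ctrl TAC. In KO TAC it was at 47.2, 44.4, 38.6 and 53.7 CPM, with the highest value in the library labelled KO TAC 4 and the other 3 near or below the lowest Ctrl TAC value of 47.0 CPM. It rose by 1.07 on the log2 scale in Ctrl (SE 0.11, adjusted p = 2.57e-06) and by 0.90 in KO hearts (SE 0.11, adjusted p = 4.84e-06). Between KO TAC and Ctrl TAC the log2 differences were 0.14 for Col6a1 (95% interval -0.04 to 0.32, adjusted p = 0.389), 0.14 for Col6a2 (-0.04 to 0.31, adjusted p = 0.391) and -0.14 for Col6a3 (-0.36 to 0.08, adjusted p = 0.499). Col6a3 was the only one of the 8 genes with a value below 0 in this comparison. Without the library labelled KO TAC 4 its difference was -0.23 (adjusted p = 0.253), and those of Col6a1 and Col6a2 were 0.15 (adjusted p = 0.439) and 0.12 (adjusted p = 0.519).

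The collagen VIII chains had the 2 largest fitted rises of the 8 genes in Ctrl hearts, and both of their intervals overlapped that of Col12a1. Both chains were higher in KO TAC than in Ctrl TAC. Col8a1 (ENSMUSG00000068196) occupies chromosome 16 at 57624258 to 57754737, minus strand, and Col8a2 (ENSMUSG00000056174) chromosome 4 at 126286793 to 126314330, plus strand. Col8a1 was at 19.1, 20.2, 25.4 and 18.4 CPM in Ctrl sham, 21.0, 20.4, 20.5 and 18.5 in KO sham, 93.9, 82.4, 91.1 and 133 CPM in Ctrl TAC and 147, 135, 161 and 151 CPM in KO TAC. The highest Ctrl TAC library, Ctrl TAC 4, was just below the lowest KO TAC library, so the groups touched without overlap. Col8a1 rose 4.82-fold in Ctrl (log2 fold change 2.27, SE 0.13, adjusted p = 4.72e-08) and 7.38-fold in KO hearts (log2 fold change 2.88, SE 0.14, adjusted p = 1.28e-09). KO TAC was 1.48-fold above Ctrl TAC (log2 fold change 0.57, SE 0.13, adjusted p = 0.0306). This call was lost without any 1 of the TAC libraries other than Ctrl TAC 4, with adjusted p between 0.0507 (without the library labelled KO TAC 4) and 0.102 (without Ctrl TAC 2), while the log2 difference stayed between 0.48 and 0.74 in all 16 omissions of 1 library.

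Col8a2 was scarce in sham hearts, with 8 to 17 counts per library in Ctrl sham and 5 to 23 in KO sham. In CPM it was at 0.237, 0.125, 0.237 and 0.293 in Ctrl sham, 0.316, 0.0875, 0.293 and 0.404 in KO sham, 1.36, 1.27, 1.11 and 2.07 in Ctrl TAC and 2.95, 4.40, 3.88 and 3.51 in KO TAC. All KO TAC libraries were above all Ctrl TAC libraries, and these above all sham libraries. The rise was 6.55-fold in Ctrl (log2 fold change 2.71, SE 0.32, adjusted p = 1.03e-05) and 13.3-fold in KO hearts (log2 fold change 3.73, SE 0.31, adjusted p = 6.5e-08). The 95% interval of the Ctrl rise, 2.04 to 3.38 on the log2 scale, was the widest of the 8 genes. KO TAC was 2.53-fold above Ctrl TAC (log2 fold change 1.34, SE 0.26, adjusted p = 0.0145), and 0.0232 was the adjusted p without the library labelled KO TAC 4. The call was lost without Ctrl TAC 2 (adjusted p = 0.0553) or without KO TAC 3 (adjusted p = 0.0534).

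The promoters of both collagen VIII chains, which were higher in KO TAC than in Ctrl TAC, are shown with those of 2 collagen VI chains, which were not called in that comparison. Each is the stretch of 250 bases before the RefSeq start (GRCm38.p6), 5′ to 3′ on the strand of the gene, in lower case with motif matches in capitals. The windows are chr16:57754738-57754987 (minus strand) for Col8a1, chr4:126286544-126286793 (plus strand) for Col8a2, chr10:76623631-76623880 (minus strand) for Col6a2, which has a further RefSeq start with another window, and chr1:90843972-90844221 (minus strand) for Col6a3.
Col8a1: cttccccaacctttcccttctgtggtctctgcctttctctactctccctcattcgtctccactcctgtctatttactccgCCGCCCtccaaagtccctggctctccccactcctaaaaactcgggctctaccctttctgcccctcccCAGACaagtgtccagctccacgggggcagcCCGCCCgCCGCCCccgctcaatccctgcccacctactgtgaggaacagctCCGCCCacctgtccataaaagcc
Col8a2: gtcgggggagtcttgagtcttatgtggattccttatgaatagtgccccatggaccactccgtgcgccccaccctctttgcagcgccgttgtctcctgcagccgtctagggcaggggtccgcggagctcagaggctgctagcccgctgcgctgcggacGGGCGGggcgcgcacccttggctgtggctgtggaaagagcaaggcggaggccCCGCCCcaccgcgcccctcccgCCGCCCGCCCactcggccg
Col6a2: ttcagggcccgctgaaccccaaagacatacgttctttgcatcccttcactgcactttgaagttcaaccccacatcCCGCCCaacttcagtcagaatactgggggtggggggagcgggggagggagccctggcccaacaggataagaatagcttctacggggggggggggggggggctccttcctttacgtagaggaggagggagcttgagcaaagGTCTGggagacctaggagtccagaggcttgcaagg
Col6a3: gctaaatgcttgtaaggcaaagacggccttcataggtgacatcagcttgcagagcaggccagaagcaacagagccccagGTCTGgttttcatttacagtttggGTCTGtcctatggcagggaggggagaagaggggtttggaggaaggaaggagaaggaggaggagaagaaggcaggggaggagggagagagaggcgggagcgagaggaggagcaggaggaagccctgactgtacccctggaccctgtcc

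The 6 motifs searched, on both strands, were AP-1 (TGANTCA), TEAD (CATTCC), the SMAD box (CAGAC), the GC box (GGGCGG), the TATA box (TATAAA) and the CCAAT box (CCAAT). The capitals in the Col8a1 promoter mark 4 GC boxes and 1 SMAD box, and those in the Col8a2 promoter 4 GC boxes, the last 2 of which overlap each other. The Col6a2 window shown has 1 GC box and 1 SMAD box, the window of its other RefSeq start (chr10:76623405-76623654) 3 GC boxes and 1 TEAD match, and the Col6a3 window 2 SMAD boxes, so that GC boxes were found in promoters of both kinds. Among the 32851 promoter windows of the same length in the table, 32.7% hold a GC box and 42.2% a SMAD box, so neither is rare. Promoters were at hand for 6 of the 8 genes, and of those not shown Col6a1 has 1 AP-1 match (6.75% of all windows) and Col16a1 1 GC box and 1 CCAAT box (33.8%).

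Of the FACIT collagens, Col12a1 and Col14a1 were higher in KO TAC than in Ctrl TAC and Col16a1 was just outside the threshold. Col12a1 (ENSMUSG00000032332, chromosome 9, 79598991 to 79718831, minus strand) encodes a large FACIT chain found in tissues under tension, such as tendon. Its level was low in sham hearts, at 1.59, 1.37, 1.40 and 1.64 CPM in Ctrl and 1.58, 1.29, 1.74 and 1.04 CPM in KO. In Ctrl TAC it was at 5.72, 5.20, 4.49 and 8.10 CPM and in KO TAC at 13.2, 12.7, 18.3 and 13.9 CPM, so that the lowest KO TAC library was well above the highest Ctrl TAC library. It rose 3.92-fold in Ctrl (log2 fold change 1.97, SE 0.19, adjusted p = 1.21e-06) and 10.3-fold in KO hearts (log2 fold change 3.36, SE 0.19, adjusted p = 1.92e-09). KO TAC was 2.47-fold above Ctrl TAC (log2 fold change 1.30, SE 0.17, adjusted p = 0.00563), and Col12a1 ranked 1 of 18275 genes by p-value in this comparison. It was called in all 16 omissions of 1 library, with an adjusted p of 0.00606 without the library labelled KO TAC 4.

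Col14a1 (ENSMUSG00000022371, chromosome 15, 55307750 to 55520803, plus strand), a FACIT that binds the surface of collagen I fibrils, was at 7.56, 9.84, 9.73 and 11.0 CPM in Ctrl sham hearts and 9.04, 8.62, 8.40 and 8.05 in KO sham hearts. After TAC it was at 24.5, 19.6, 23.1 and 25.6 CPM in Ctrl and 30.8, 38.1, 37.2 and 38.0 CPM in KO hearts. KO TAC 1 was the lowest of its group and was still above every Ctrl TAC library. It rose 2.44-fold in Ctrl (log2 fold change 1.29, SE 0.10, adjusted p = 2.23e-07) and 4.22-fold in KO hearts (log2 fold change 2.08, SE 0.11, adjusted p = 6.66e-10). The KO TAC level was 1.55-fold that of Ctrl TAC (log2 fold change 0.63, SE 0.10, adjusted p = 0.00753). This call, too, was made in all 16 omissions, at an adjusted p of 0.0122 without the library labelled KO TAC 4.

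Col16a1 (ENSMUSG00000040690, chromosome 4, 130047840 to 130099283, plus strand), a smaller FACIT-like collagen, varied little within the sham groups, at 5.62, 5.87, 6.20 and 6.84 CPM in Ctrl and 5.80, 6.23, 6.37 and 5.78 CPM in KO. It was at 14.3, 13.8, 15.1 and 19.1 CPM in Ctrl TAC and 18.7, 20.5, 20.9 and 18.7 CPM in KO TAC. Ctrl TAC 4 lay among the KO TAC libraries, and the other 3 Ctrl TAC libraries lay below them. The rise was 2.54-fold in Ctrl (log2 fold change 1.35, SE 0.10, adjusted p = 5.5e-08) and 3.3-fold in KO hearts (log2 fold change 1.71, SE 0.10, adjusted p = 1.28e-09). KO TAC and Ctrl TAC differed by 0.34 on the log2 scale (95% interval 0.15 to 0.53, adjusted p = 0.0518), which did not pass, although it did with DESeq2 (adjusted p = 0.0141) and without Ctrl TAC 4 (adjusted p = 0.00501). Without the library labelled KO TAC 4 the difference was 0.36 (adjusted p = 0.0665).

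**Figure D2:**
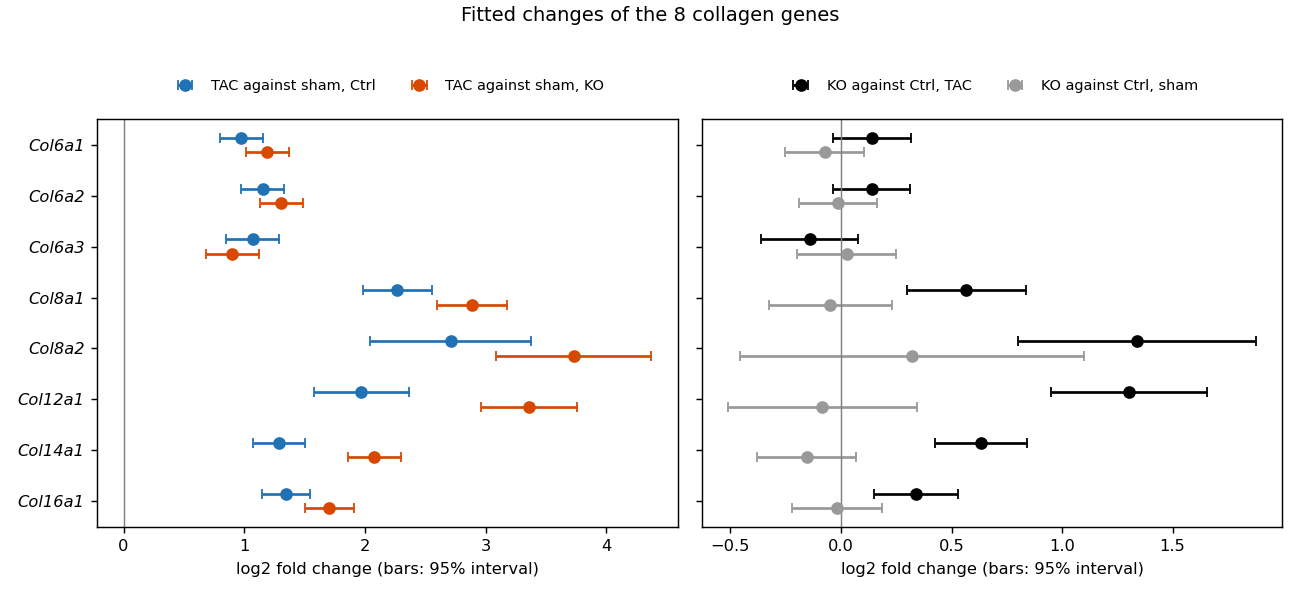
Fitted log2 fold changes of the 8 collagen genes (points) with 95% intervals (bars), for TAC against sham in each genotype (left) and for KO against Ctrl within each operation (right). All intervals of the left panel lie above 0. On the right, the intervals after TAC lie above 0 for Col8a1, Col8a2, Col12a1, Col14a1 and Col16a1, the last of which was not called (adjusted p = 0.0518), and all sham intervals include 0.

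Whether the deletion alters these genes without pressure load was asked in the sham hearts. The log2 difference between KO sham and Ctrl sham was 0.32 for the scarce Col8a2 (95% interval -0.46 to 1.10) and between -0.16 (Col14a1) and 0.02 (Col6a3) for the other 7, each with an adjusted p of 1.00. Col6a1 and Col6a2 had the narrowest intervals, -0.25 to 0.10 and -0.19 to 0.16. The interval of Col12a1, -0.51 to 0.34, was wider at its low level.

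The difference between the genotypes in their response to TAC was tested directly as the genotype by surgery interaction. No collagen gene was called (background 0.0109% of genes in either direction, with 11.1% at an unadjusted p under 0.05 in edgeR). The interaction was 1.39 on the log2 scale for Col12a1 (SE 0.26, unadjusted p = 5.42e-05, adjusted p = 0.110), 0.79 for Col14a1 (SE 0.15, unadjusted p = 3.75e-05, adjusted p = 0.0980) and 0.61 for Col8a1 (SE 0.18, adjusted p = 0.248). It was 1.02 for Col8a2 (SE 0.45, adjusted p = 0.414) and 0.36 for Col16a1 (SE 0.13, adjusted p = 0.331). The collagen VI chains were at 0.22 (Col6a1), 0.15 (Col6a2) and -0.17 (Col6a3). DESeq2, with 0.722% of all genes called, called 2 of the 8, Col12a1 (adjusted p = 0.000462) and Col14a1 (adjusted p = 0.000634), and the fit without Ctrl TAC 4, with 0.0973% called, called 3, Col8a1, Col12a1 and Col14a1 (adjusted p 0.0158, 0.00615 and 0.0334). Without Ctrl sham 1, with 0.0216% called, it was 1 gene, Col14a1 (adjusted p = 0.0196). Without the library labelled KO TAC 4, with 0.00541% of all genes called, none of the 8 was called, with an adjusted p of 0.117 for both Col12a1 and Col14a1.

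The animal numbers in the sample titles fall into series whose meaning is not stated. Ctrl TAC 2, 3 and 4 and the library labelled KO TAC 4 have numbers that start with 25, and no sham animal does. With a term for these numbers, 1 of the 8 genes remained called between KO TAC and Ctrl TAC, Col12a1 (adjusted p = 0.0446), and 0.0657% of all genes were called. Col14a1, Col8a2 and Col8a1 then had adjusted p of 0.0546, 0.0976 and 0.112, at log2 differences of 0.63, 1.34 and 0.61. Within the series, the library labelled KO TAC 4 had 13.9 CPM of Col12a1 against 4.49 to 8.10 in Ctrl TAC 2, 3 and 4. Outside it, KO TAC 1, 2 and 3 had 13.2, 12.7 and 18.3 CPM against 5.72 in Ctrl TAC 1. The library labelled KO TAC 4, whose Gm12295 level goes against its label, is the only KO library inside the series. Without it and with the same term, the comparison rests on Ctrl TAC 1 alone on the Ctrl side, and none of the 8 was called (7 of 18494 genes in all), with a log2 difference of 1.36 for Col12a1 (adjusted p = 0.140).

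RNA of the whole apex mixes cell types, so that more cells of a type and more RNA per cell cannot be told apart. The summed CPM of 6 markers of activated fibroblasts was 34.2 to 59.7 in Ctrl sham, 41.2 to 48.5 in KO sham, 204 to 411 in Ctrl TAC and 615 to 760 in KO TAC. Much of these sums was Postn, at 22.3 to 486 CPM over the libraries. Of the 6 genes, 5 were called higher in KO TAC than in Ctrl TAC (1.36% of all genes). The summed CPM of 8 general fibroblast markers, none of which was at 0 in any library, was 1420 to 1596 in Ctrl sham, 1474 to 1561 in KO sham, 1435 to 1762 in Ctrl TAC and 1747 to 1977 in KO TAC. Of these 8, 2 were called higher in Ctrl TAC than in Ctrl sham (10.4% of all genes). In KO TAC against KO sham 5 were called higher (17.8% of all genes), and none was called between KO TAC and Ctrl TAC. The 8 cardiomyocyte markers summed to 48986 to 56631 CPM in Ctrl sham and 49343 to 54676 in KO sham. They summed to 41913 to 46236 CPM in Ctrl TAC and 35378 to 37867 in KO TAC. Much of these sums was Myh6, at 14570 to 27489 CPM over the libraries. After TAC 5 of the 8 were called lower and 1 higher in Ctrl hearts (9.60% of all genes called lower). In KO hearts 6 were called lower (16.5% of all genes), and between KO TAC and Ctrl TAC 2 were (1.32%). Macrophage markers summed to 111 to 144 CPM in Ctrl sham, 103 to 122 in KO sham, 158 to 165 in Ctrl TAC and 141 to 185 in KO TAC. Pericyte markers summed to 992 to 1024 CPM in Ctrl sham and 914 to 985 in KO sham. After TAC they summed to 817 to 895 CPM in Ctrl and 769 to 884 in KO hearts. Smooth muscle markers summed to 243 to 277 CPM in Ctrl sham and 237 to 253 in KO sham. After TAC their sums were 180 to 236 CPM in Ctrl and 204 to 231 in KO hearts. For both sums sham and TAC libraries of a genotype did not overlap, but single genes went both ways. Of 5 pericyte markers, 1 was called higher and 1 lower after TAC in each genotype. Of 5 smooth muscle markers, 1 was called higher and 1 lower in Ctrl hearts, and 2 higher and 1 lower in KO hearts. Mitochondrial genes took 26.8% to 28.8% of the counts in Ctrl sham, 27.1% to 28.4% in KO sham, 21.9% to 27.0% in Ctrl TAC and 23.4% to 25.1% in KO TAC. Endothelial, smooth muscle and pericyte lists of 6, 5 and 5 genes had none called between KO TAC and Ctrl TAC, nor had 5 Schwann cell markers, while 1 of 6 macrophage and 1 of 4 tested skeletal muscle markers were called lower. Markers of epicardium or mesothelium summed to 3.20 to 5.35 CPM in Ctrl TAC and 4.86 to 12.9 CPM in KO TAC, with 3 of 5 tested and none called. The markers of adipocytes (at most 3.29 CPM summed) and of atrial myocardium (at most 3.35 CPM) were near 0, with Lep and Sln at 0 in 15 and 12 libraries. Without the library labelled KO TAC 4, KO TAC was above Ctrl TAC for 4 of the 6 activated fibroblast markers by the same test, and no skeletal muscle marker was called. In that fit 2.37% of all genes were called in either direction. The part of these cell types and of the mitochondrial share in the collagen values was not tested.

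Levels were compared between genes per length, as CPM per kilobase of annotated exon (CPM/kb). In Ctrl sham hearts the order was Col6a1 (13.6 CPM/kb), Col6a2 (6.41), Col8a1 (2.65), Col6a3 (2.02), Col14a1 (1.36), Col16a1 (0.909), Col12a1 (0.0986) and Col8a2 (0.0497), and no neighbours in this order overlapped. In KO sham the order was the same, and Col8a1 overlapped Col6a3 and Col12a1 overlapped Col8a2. In Ctrl TAC it was again the same, with overlap between Col6a2 (14.2 CPM/kb) and Col8a1 (12.8), between Col14a1 (3.31) and Col16a1 (2.31) and between Col12a1 (0.386) and Col8a2 (0.324).

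In KO TAC the order changed at 2 places. Col8a1 (18.9 CPM/kb) stood above Col6a2 (15.7) with no overlap, second to Col6a1 (29.5), and Col14a1 (5.13) stood above Col6a3 (3.84) with overlap. Col16a1 (2.92), Col12a1 (0.954) and Col8a2 (0.821) followed, the last 2 overlapping. The summed level of the 8 genes was 27.1 ± 3.14 CPM/kb in Ctrl sham, 26.1 ± 1.24 in KO sham, 64.3 ± 7.40 in Ctrl TAC and 77.8 ± 1.93 in KO TAC (SD, n = 4 in each). Of this sum Col8a1 made up 9.81% in Ctrl sham and 19.7% in Ctrl TAC, and 9.82% in KO sham and 24.4% in KO TAC, and the TAC libraries of the genotypes overlapped (17.9% to 22.7% in Ctrl and 22.3% to 27.3% in KO). The share of Col6a1 was 50.1% in Ctrl sham, 41.6% in Ctrl TAC, 49.4% in KO sham and 37.9% in KO TAC, where the TAC libraries did not overlap (40.3% to 42.4% in Ctrl and 35.7% to 39.7% in KO). Levels, order and shares depend on the annotated lengths, since the longest transcript of Col6a2 has 4912 bases and its merged exons 8326. With the longest transcript as length, Col8a1 made up 11.8% in Ctrl sham, 23.0% in Ctrl TAC, 11.7% in KO sham and 28.2% in KO TAC. With that length Col8a1 in KO TAC (26.5 to 31.5 CPM/kb) overlapped both Col6a2 (23.9 to 28.2) and Col6a1 (28.7 to 33.7), so the separations given above were lost. When the library labelled KO TAC 4 was left out, the summed level in KO TAC was 77.4 ± 2.20 CPM/kb (SD, n = 3), the shares of Col8a1 and Col6a1 were 24.4% and 38.2%, the order by merged exons was the same, and Col14a1 no longer overlapped Col6a3.

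**Figure D3:**
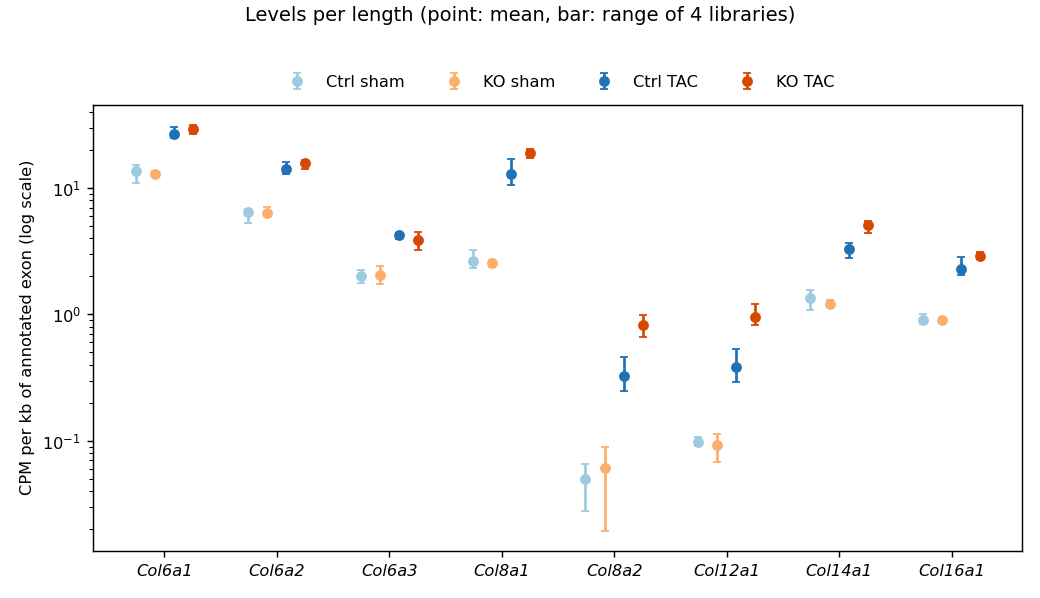
CPM per kilobase of annotated exon (log axis) for each gene and group, with the mean as a point and the range of the 4 libraries as a bar. Levels span from 0.0497 (Col8a2 in Ctrl sham) to 29.5 CPM/kb (Col6a1 in KO TAC), and Col8a1 moves from below Col6a2 in Ctrl TAC to above it in KO TAC.

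Chains of 1 collagen were also compared within each library as log2 ratios per length, which do not depend on library scaling and were given no test. Col6a2 to Col6a1 was -1.08 ± 0.05 in Ctrl sham, -1.03 ± 0.10 in KO sham, -0.91 ± 0.04 in Ctrl TAC and -0.91 ± 0.04 in KO TAC (SD, n = 4), that is, from 0.472 to 0.533 Col6a2 for each Col6a1 in Ctrl hearts, where sham and TAC libraries did not overlap. The size of each ratio depends on the annotated lengths, here merged exons, while its differences between groups do not. By the longest transcript, Col6a2 and Col6a1 were at 10.9 and 14.5 CPM/kb in Ctrl sham and at 24.1 and 28.5 in Ctrl TAC. Col6a3 to Col6a1 was -2.67, -2.54, -2.61 and -2.78 in the Ctrl TAC libraries and -3.00, -3.03, -3.06 and -2.70 in the KO TAC libraries. KO TAC 1, 2 and 3 were below all 12 libraries of the other groups, and the library labelled KO TAC 4 was within their range. Col8a2 to Col8a1 was -5.32 ± 0.16 in Ctrl TAC and -4.54 ± 0.29 in KO TAC without overlap, or 0.0251 and 0.0437 Col8a2 for each Col8a1. In sham hearts this ratio rested on few Col8a2 counts and ranged from -7.06 to -4.71. The ratio of the FACIT genes Col14a1 to Col12a1 was 3.78 ± 0.27 in Ctrl sham, 3.74 ± 0.29 in KO sham, 3.13 ± 0.30 in Ctrl TAC and 2.44 ± 0.25 in KO TAC. KO TAC did not overlap with Ctrl TAC or with KO sham, at 5.48 Col14a1 for each Col12a1 against 8.88 and 13.6. Of the 16 ratio comparisons between groups, 4 did not overlap, and 6 did not when the library labelled KO TAC 4 was left out. Ratios of other gene pairs were not formed, so these counts have no background to be set beside. Leaving out a library can only narrow a range, so such an omission can add separations but not remove any.

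**Figure D4:**
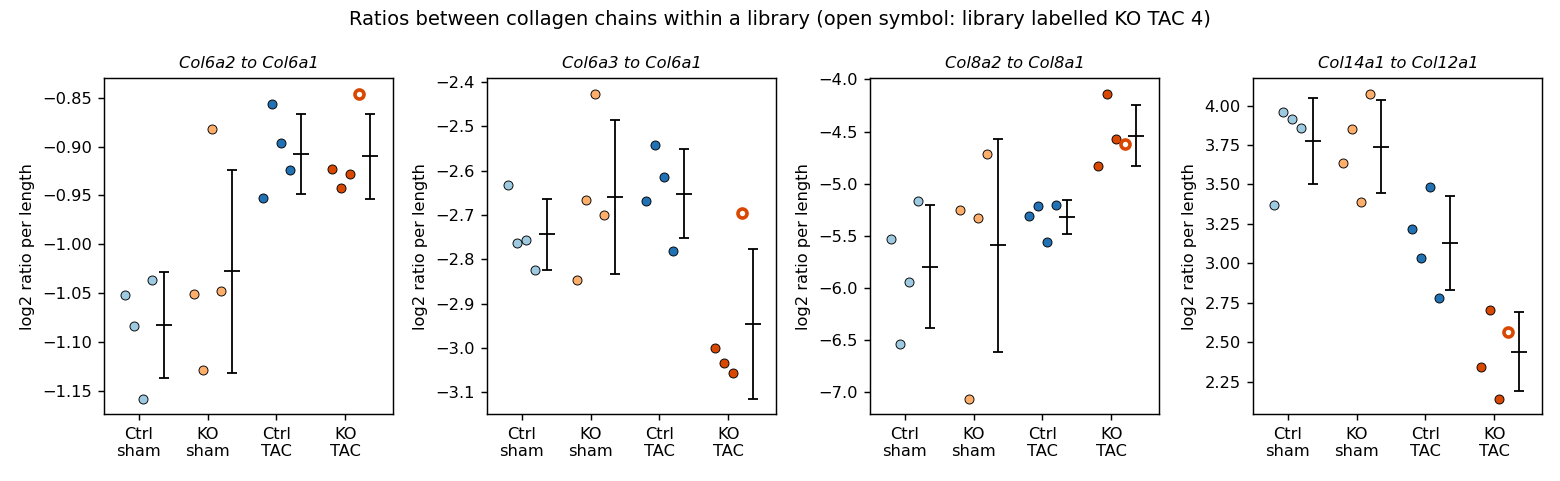
Log2 ratios between pairs of collagen genes per length (vertical axes) in each library, with the mean and SD beside the points of each group. For Col6a3 to Col6a1, the library labelled KO TAC 4 (open symbol, -2.70) lies apart from the other KO TAC libraries (-3.06 to -3.00), and for Col14a1 to Col12a1 all 4 KO TAC libraries lie below the Ctrl TAC libraries.

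Across libraries, log2 CPM values were taken as deviations from the group mean, so that the group differences dropped out, and 24 of the 28 pairs of collagen genes were positively correlated (median Pearson r 0.348 over 16 libraries, a description with no test, since all values of a library share its depth and tissue piece). The highest r was 0.878 for Col6a1 and Col6a2, and the lowest was -0.243 for Col6a3 and Col8a2. With the library labelled KO TAC 4 left out, 24 of the 28 pairs were again positive (median r 0.350 over 15 libraries). Col6a3 correlated with Col6a2 at 0.767, and Col14a1 with Col16a1 at 0.633.

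The genes most like each collagen over all 16 libraries, group differences included, were searched among 10061 genes. Col6a1 was nearest to Rcn3 (r 0.993), Col3a1 and Col5a1, and Col6a2 to Col5a1 (0.992), Rcn3 and Col1a1. Col6a3 was nearest to Gnao1 (0.966), Rcn3 and Ccn1. For Col8a1 the list was Fstl1 (0.995), Col5a2 and Bgn, and for Col8a2 Nol3 (0.977), Csrp2 and Serpinf1. Col12a1 was nearest to Fgl2 (0.995), Rtn4 and Thbs4, Col14a1 to Postn (0.992), Ltbp2 and Col5a2, and Col16a1 to Col5a2 (0.994), Pcolce and Fstl1. With group means removed, r over these 24 pairs ran from 0.401 (Col6a3 and Ccn1) to 0.925 (Col12a1 and Fgl2). Over the 15 libraries without the one labelled KO TAC 4, r over all groups ran from 0.957 to 0.995 for the same pairs.

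Other genes of the matrix were counted from lists chosen by function. Of all tested genes, 10.4% were called higher after TAC in Ctrl hearts and 17.8% in KO hearts. In KO hearts 16.5% were called lower after TAC. The background called higher in KO TAC than in Ctrl TAC was 1.36%. Of 9 tested fibrillar collagens, which form the fibrils that FACITs coat, 8 rose after TAC in Ctrl hearts and 8 in KO hearts, with Col11a2 falling in KO hearts (log2 fold change -0.97, SE 0.23, adjusted p = 0.00339). Col3a1 rose by 1.68 in Ctrl and 2.23 in KO hearts, Col1a2 by 1.25 and 1.69, Col1a1 by 1.67 and 2.14 and Col5a1 by 1.12 and 1.39 on the log2 scale. Between KO TAC and Ctrl TAC 2 of the 9 were called higher, Col1a2 (0.40, SE 0.10, adjusted p = 0.0375) and Col5a2 (0.51, SE 0.09, adjusted p = 0.0104). Col3a1 (0.39, adjusted p = 0.123), Col1a1 (0.35, adjusted p = 0.0846) and Col5a1 (0.20, adjusted p = 0.0890) were not called. The medians in this comparison were 0.35 over the fibrillar list, 0.45 over the 8 collagen genes described here and -0.0017 over all genes.

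Among the remaining genes of the FACIT, beaded and short-chain classes, 11 of the 12 listed were in the table and 7 were tested. In Ctrl hearts 2 rose after TAC (background 10.4% of all genes), Col9a2 (2.50, adjusted p = 6.86e-05) and Col22a1 (0.67, adjusted p = 0.00248). Col6a6, a further collagen VI chain, fell by 1.69 on the log2 scale in Ctrl (SE 0.24, adjusted p = 0.000119) and by 2.40 in KO hearts (SE 0.25, adjusted p = 2.31e-06), opposite to Col6a1, Col6a2 and Col6a3. Of the 7, Col22a1, a FACIT known from muscle-tendon junctions, was higher in KO TAC than in Ctrl TAC (0.72, SE 0.13, adjusted p = 0.0141). Col28a1 (0.59 in Ctrl, adjusted p = 0.0611) and Col20a1 (-0.19, adjusted p = 0.496) were not called after TAC.

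Of 12 matrix partners, proteins that bind these collagens or bridge them to other matrix, 9 rose after TAC in Ctrl and 10 in KO hearts. The backgrounds of genes called higher were 10.4% and 17.8%, and 1.36% in KO TAC against Ctrl TAC. The proteoglycan Bgn rose by 1.39 and 2.02 on the log2 scale, Hspg2, the basement membrane proteoglycan perlecan, by 0.31 and 0.31, and Dcn, the fibril-binding proteoglycan decorin, was called in KO hearts (0.60) and not in Ctrl hearts (0.23, adjusted p = 0.201). Tnxb, tenascin X, was called in neither (adjusted p = 0.0505 and 0.143). In KO TAC against Ctrl TAC, 4 of the 12 were called higher, Bgn (0.59, SE 0.10, adjusted p = 0.0104), Fn1 (0.37), Fmod (1.58) and Ccn5 (0.86, listed under the older symbol Wisp2).

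Of 11 collagen receptors, 6 rose and 1 fell after TAC in each genotype. Of all tested genes, 10.4% were called higher and 9.60% lower in Ctrl hearts, and 17.8% higher and 16.5% lower in KO hearts. Between KO TAC and Ctrl TAC, 1.36% of all genes were called higher in KO TAC. The shared integrin subunit Itgb1 rose by 0.17 in Ctrl and 0.30 in KO hearts, and Mrc2, which takes up collagen for degradation, by 0.91 and 1.16. Antxr2, a receptor of collagen VI, fell by 0.34 and 0.41 (adjusted p = 0.00128 and 0.000124). The related Antxr1, which also binds collagen VI, was the 1 receptor called higher in KO TAC than in Ctrl TAC (0.46, SE 0.09, adjusted p = 0.0145). Itga1 was not called after TAC (adjusted p = 0.696 in Ctrl). Of 16 genes of collagen synthesis and secretion, 7 rose in each genotype and 2 were higher in KO TAC than in Ctrl TAC, Sparc (0.35, SE 0.09, adjusted p = 0.0485) and P4hb (0.20, SE 0.05, adjusted p = 0.0419). The collagen chaperone Serpinh1 (0.27 in Ctrl, adjusted p = 0.492) and the lysyl hydroxylase Plod1 (0.09, adjusted p = 0.631) were not called after TAC. In sham hearts no gene of these lists was called between genotypes, and no gene of them was called for the interaction. If the library labelled KO TAC 4 was left out, the numbers called higher in KO TAC than in Ctrl TAC were 1 of 9 fibrillar collagens, 1 of 7 remaining FACIT, beaded and short-chain genes, 3 of 12 matrix partners, 1 of 11 receptors and none of 16 genes of synthesis and secretion. In that fit 2.37% of all genes were called in either direction.

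**Figure D5:**
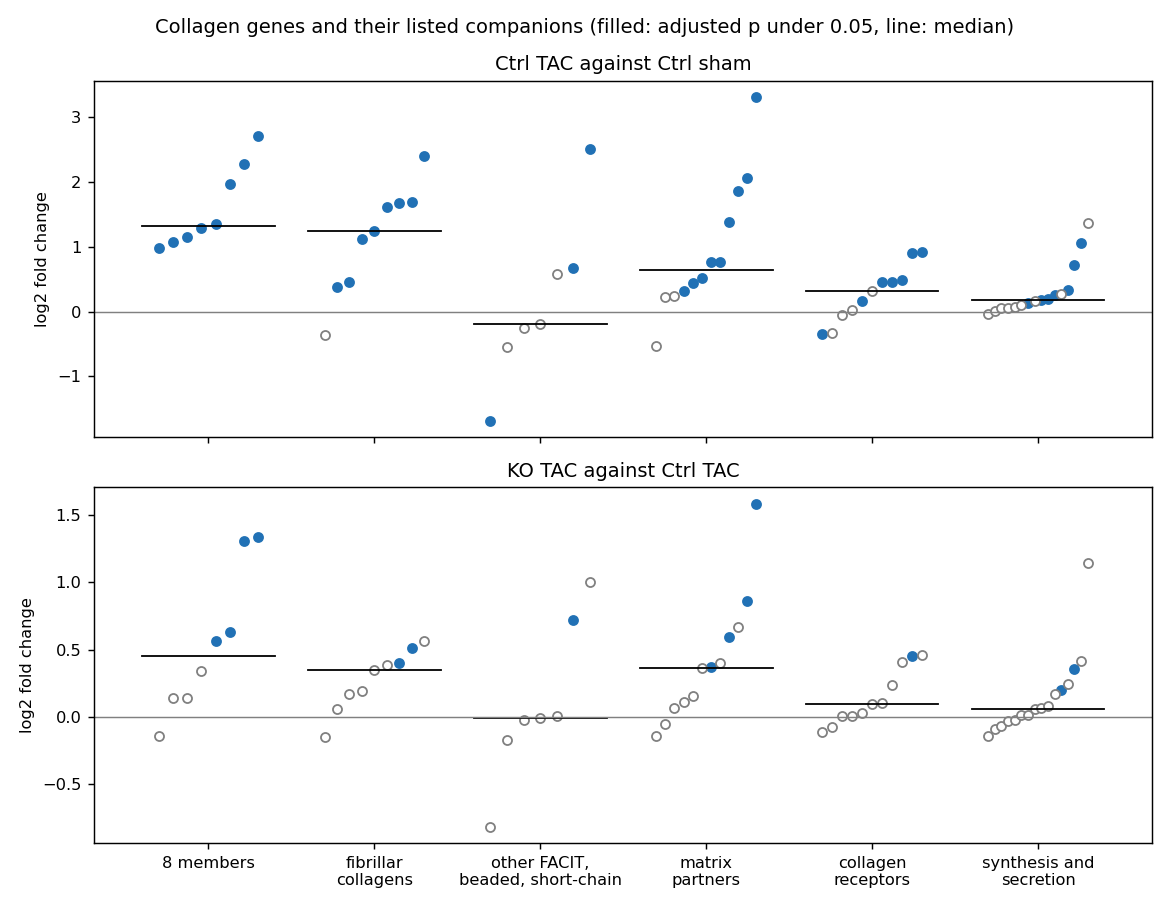
Log2 fold change of every tested gene of the 8 collagen genes and of the 5 lists of other matrix genes, for Ctrl TAC against Ctrl sham (top) and KO TAC against Ctrl TAC (bottom), with filled points for an adjusted p under 0.05 and a line at the median of each list. In the top panel the medians of the 8 genes and of the fibrillar collagens are 1.32 and 1.25, and the median of the remaining FACIT, beaded and short-chain genes is -0.19.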

How the data were processed

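Counts of reads per Ensembl gene were deposited by the authors as 1 table of whole numbers without normalization, with 1 column per mouse. Columns were matched to samples by the animal number in the titles. The submitters' processing notes name cutadapt 2.3, FastQC, HISAT2 2.1.0, edgeR 3.26.1 and GRCm38. The counting program, the annotation and the use of strand are not given in the sources used here. Reads were paired, 150 bases long. Gene names, positions and exon lengths came from GENCODE M21 (GRCm38), which held 55141 of the 55487 identifiers, and the others carried 0.0131% of the counts. Promoters came from RefSeq (GRCm38.p6).

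Genes were filtered with filterByExpr (18275 kept) and scaled by TMM in edgeR 4.0.16 (R 4.3.3). The 16 libraries entered a single quasi-likelihood fit with a coefficient per group (4), and 5 contrasts were tested, with Benjamini-Hochberg adjustment over all tested genes and an adjusted p under 0.05 for a call. The fit was tested on simulated data. Libraries came from separate animals, and no pair within a group was alike within sampling noise (at least 10.8 chi-square per gene). Totals were at least 53169437 counts, but in sham libraries Col8a2 had 5 to 23 and Col12a1 59 to 114 counts, for which counting error is not small. The 8 genes and the lists were chosen with earlier results of these data known. Named were all 8 genes, for each list up to 4 genes with the highest mean CPM and any against its direction, and the 3 genes most correlated with each collagen (average log2 CPM of at least 2). Col5a2, Col9a2, Fn1, Fmod, Ccn5, Antxr1, Lep and Sln were named after their values were seen. Alternatives were RLE size factors, DESeq2 1.42.0, other filters and thresholds, terms for animal numbers, other lengths and the omission of libraries (for the lists, levels and correlations and with the term for 25, added after seeing the data, as were shares by the longest transcript).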

Additional observations from a re-analysis of the deposited data

Results flagged for a closer look

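Each gene and ratio was checked in each group of 4 libraries for 1 library far from the other 3 (Dixon's test of the gap to the nearest library over the range), 52 checks in all, and 6 were found. Chance alone gives about 1 in 20. Col6a2 was at 44.4 CPM in Ctrl sham 1, against 55.6 to 56.9 CPM in the other Ctrl sham libraries. Col14a1 was at 30.8 CPM in KO TAC 1, against 37.2 to 38.1 CPM. The log2 ratio of Col14a1 to Col12a1 was 3.37 in Ctrl sham 1, against 3.86 to 3.96. In the library labelled KO TAC 4, the log2 ratio of Col6a3 to Col6a1 was -2.70, against -3.06 to -3.00 in KO TAC 1, 2 and 3, and Gm12295 was at 4.55 CPM, against 0.276 to 0.371 CPM. Gm12295 was at 8.02 CPM in Ctrl TAC 1, against 2.69 to 3.37 CPM in the other Ctrl TAC libraries.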

How the results depend on the processing

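All 8 collagen genes were called higher after TAC in both genotypes under every alternative, except that Col8a2 was not tested with at least 10 counts in every library (7 of 7 called). The share of all genes called in either direction ran from 8.16% with no filter to 23.3% with that filter in Ctrl hearts. In KO hearts it ran from 14.9% to 38.7% with the same 2 settings. In KO TAC against Ctrl TAC, 4 were called. The number (with the share of all genes called in either direction, 2.68% as reported) was 2 at an adjusted p under 0.01 (0.104%), 1 with the term for animal numbers starting with 25 (0.0657%), 2 without Ctrl TAC 2 and KO TAC 4 together (0.594%), and 2 to 5 over the omissions of 1 library (2 without Ctrl TAC 2, with 0.342%, or KO TAC 3, 5 without Ctrl TAC 4, with 3.96%, the lowest and highest shares). RLE factors gave 4 (2.65%), DESeq2 5 (6.47%), no filter 3 (0.784%), the stricter filter 4 (3.90%), the term for numbers starting with 33 5 (3.14%), and the fit to 8 libraries 3 (0.877%). No TAC animal belongs to the 33 series, so that term cannot adjust KO TAC against Ctrl TAC for the series. With it the log2 differences of Col12a1 and Col8a1 stayed at 1.30 and 0.57, so its count says little about these calls. Col8a1 was called in 9 of the 16 omissions and Col8a2 in 14. Leaving out a sham library leaves the libraries of this comparison unchanged, so those omissions say little about these calls. When a TAC library was left out, Col8a1 was called only without Ctrl TAC 4. Col8a2 was then not called without Ctrl TAC 2 or without KO TAC 3. For the interaction, 0 were called, 2 with DESeq2 and 0 to 3 over the omissions. All genes called in KO TAC against Ctrl TAC numbered 489, 1183 with DESeq2, 285 with no filter, 19 at the stricter threshold and 12 with the term for 25. In KO sham against Ctrl sham none was called under any alternative, and signs turned over the omissions for Col6a2 (-0.093 to 0.018), Col6a3 (-0.065 to 0.10), Col8a1 (-0.10 to 0.063), Col12a1 (-0.20 to 0.035) and Col16a1 (-0.059 to 0.035). Of 28 neighbours in the order of levels 21 did not overlap, 18 with the longest transcript as length. Nonoverlapping ratio comparisons numbered 4 to 6 over the omissions, a count that could not fall, because leaving out a library can only narrow a range. The cause of these changes was not tested. No paired analysis was possible because the labels give no replicate numbers that groups share.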
